A study of Mus musculus with 4 samples.

Results

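The mouse genes followed here encode ion channels known from sperm, or subunits of them, namely Catsper1, Catsper2, Catsper3, Catsper4, Catsperb, Kcnu1 and Hvcn1. They were chosen by name: every gene whose symbol starts with Catsper, plus Kcnu1 and Hvcn1. Of the 12415 genes with reads listed on the sense strand of their exons, 6 were members, and all 6 passed the filter on low counts. Hvcn1 was the seventh and was found only in the categories for reads on the opposite strand, so its messenger RNA was not analysed here.

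The study asked whether testicular RNA changes when NEF-sp (gene symbol 2610020H08Rik, also called Rexo5), an exoribonuclease whose transcript was found in testis, is missing. The paper could not detect the endogenous mouse protein there. Strand-specific libraries of total testicular RNA, depleted of ribosomal RNA, were sequenced from adult C57Bl/6J mice at postnatal day 60. The first group was Nef-sp -/-, homozygous for an out-of-frame deletion of 23 bp, and the second was Nef-sp +/-, which carries the same deletion on 1 allele, each with 2 libraries. The line came from single-cell embryos injected with Cas9 nickase mRNA and a pair of guide RNAs, and its female founders were bred with unmodified C57Bl/6J Rj mice. No library from a mouse without the deletion was analysed here, so every difference below is between homozygotes and heterozygotes. The labels number the samples within a genotype but do not say whether they came from separate animals or litters, so the p-values measure the spread between these samples, which may be technical.

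CatSper is the calcium channel of the sperm flagellum. CatSper1, CatSper2, CatSper3 and CatSper4 each contribute 1 part of its pore, and accessory proteins such as CatSper beta sit around it. The channel opens when the inside of the tail becomes alkaline, and the calcium that enters drives hyperactivation, the vigorous beating a sperm needs to reach and penetrate an egg. Kcnu1 encodes SLO3, the pore of the sperm potassium channel KSper, which sets the membrane voltage, and Hvcn1 encodes the proton channel Hv1, which lets acid out of the cell. The libraries are of bulk testis, so the cells that made the messenger RNAs of these proteins were not resolved here.

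The part of each pore that selects or senses ions shows how the members are related. Each stretch below is coding sequence of the mm9 mouse genome, read 5′ to 3′ from GENCODE vM1 transcripts. In the 4 pore subunits of CatSper the capitals are the codons for threonine, any residue, aspartate, any residue and tryptophan, which form the calcium filter. In Kcnu1 they are the codons of the glycine, phenylalanine and glycine of a potassium filter, and in Hvcn1 the codons of the arginine-bearing segment that senses voltage.
Catsper1: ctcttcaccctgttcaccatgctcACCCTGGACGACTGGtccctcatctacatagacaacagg
Catsper2: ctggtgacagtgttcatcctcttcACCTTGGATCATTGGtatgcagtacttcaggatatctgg
Catsper3: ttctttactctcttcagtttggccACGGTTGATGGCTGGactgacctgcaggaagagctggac
Catsper4: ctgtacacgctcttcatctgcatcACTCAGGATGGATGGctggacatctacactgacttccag
Kcnu1: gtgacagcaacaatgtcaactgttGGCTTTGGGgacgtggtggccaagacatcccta
Hvcn1: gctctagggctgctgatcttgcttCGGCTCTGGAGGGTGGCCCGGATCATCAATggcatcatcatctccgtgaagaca

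The Catsper1 stretch lies at chr19:5339789-5339851 on the plus strand, in exon 6 of 12, and the capitals encode residues 534 to 538 of 686. That of Catsper2 is at chr2:121225880-121225942 on the minus strand, in exon 8 of 13, and encodes residues 293 to 297 of 588. The Catsper3 stretch is split between exons 4 and 5 of 8, from chr13:55906301 to 55907110 on the plus strand, with capitals at residues 225 to 229 of 395. In Catsper4 it is split between exons 7 and 8 of 11, from chr4:133771233 to 133773782 on the minus strand, with capitals in exon 7 at residues 235 to 239 of 442. The Kcnu1 filter, at residues 278 to 280 of 1121, lies in exon 8 of 27 at chr8:26991844-26991900 on the plus strand. The Hvcn1 capitals, residues 201 to 210 of 269, lie in exon 6 of 8 at chr5:122688616-122688645 on the plus strand, and the bases that follow them run into exon 7.

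The filter motif occurred 1 time in each of the 4 CatSper proteins. Between pairs of these subunits, 28 to 38 of the 63 bases were identical. The closest pair was Catsper1 and Catsper4 with 38, and the most distant was Catsper2 and Catsper3 with 28. Within the 15 bases in capitals 9 to 11 were identical. Only perfectly matching reads were kept by the study, and at this divergence the pore genes differ from each other at many positions within these stretches.

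The genes are spread over different chromosomes. Catsper1 (ENSMUSG00000038498.3) lies at chr19:5335741-5344153 and Catsperb (ENSMUSG00000047014.6) at chr12:102642883-102864219, both on the plus strand. Catsper2 (ENSMUSG00000033486.7) lies at chr2:121218367-121240317 and Catsper4 (ENSMUSG00000048003.5) at chr4:133767885-133783298, both on the minus strand. Catsper3 (ENSMUSG00000021499.6) at chr13:55885929-55910359, Kcnu1 (ENSMUSG00000031576.9) at chr8:26960095-27048405 and Hvcn1 (ENSMUSG00000064267.7) at chr5:122656813-122692306 are on the plus strand. Catsperb is the longest of them by far, with 27 exons of 3716 bases in total among 217621 bases of intron.

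The libraries held 20659865 to 34442517 reads, of which 15815159 to 26618821 fell on exons in sense orientation. The deepest was Nef-sp +/- replicate 2. Nef-sp itself gave normalized counts of 1843 and 1693 in the heterozygous libraries and 407 and 497 in the homozygous libraries, so the genotype labels fit the targeted gene. A normalized count is the number of reads scaled to a common library size. The log2 fold change of Nef-sp, homozygous over heterozygous, was -1.97 (SE 0.0921, edgeR quasi-likelihood test with Benjamini-Hochberg adjustment, adjusted p = 4.1e-06). It was the only one of 10728 exon sense genes tested with an adjusted p below 0.05, a share of 0.00932%. DESeq2, run on all 12415 listed genes without the filter on low counts, called 2.

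Germ cell markers were abundant, as the testis label calls for. The summed normalized count of 6 spermatid markers was 317114 and 388466 in the heterozygous libraries and 393894 and 384672 in the homozygous libraries. Nef-sp +/- replicate 1 was the lowest in this sum and in each of Tnp1, Tnp2, Prm1 and Prm2, which make up most of it. It was not the lowest in the other 2 markers, Acrv1 (4354 against 4293, 4335 and 4617) and Spaca1 (3828 against 3687, 3533 and 3848). The 6 spermatocyte markers summed to 20490 and 19406 against 18160 and 20157, and of 6 spermatogonial markers the 3 that passed the filter on low counts to 489 and 476 against 405 and 535. In bulk tissue, fewer cells of a type and less RNA per cell cannot be told apart.

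The mean exon read levels of Catsper1 and Catsper2 in homozygotes were 99.1% and 99.5% of those in heterozygotes. Catsper1 encodes the pore subunit whose histidine-rich amino terminus faces the cytoplasm. Its normalized counts were 2412 and 2333 in the heterozygous libraries and 2359 and 2345 in the homozygous libraries. The Nef-sp -/- values lay between those of the controls. The group means were 2373 ± 56.1 and 2352 ± 10.01 (SD, n = 2 each), which is a log2 fold change of -0.012 (SE 0.0585, edgeR adjusted p = 0.990), with a 95% interval that runs from 90.7% to 108% of the control level.

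Catsper2 was the member with the most exon reads. It gave 6155 and 5995 normalized counts in heterozygotes and 6115 and 5978 in homozygotes. The groups overlapped, and each genotype held 1 higher and 1 lower library. The means were 6075 ± 113 and 6046 ± 97.0 (SD, n = 2 each). This was a log2 fold change of -0.0066 (SE 0.0575, edgeR adjusted p = 0.993). The 95% interval reached from 91.2% to 109% of the control level.

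Catsper3 had the largest difference of the members. CatSper3 and CatSper4 are pore subunits that share the general plan of the other 2. Its normalized counts were 1032 and 1085 in the heterozygous libraries and 894 and 984 in the homozygous libraries. Both Nef-sp -/- libraries lay below both controls, and the nearest values of the 2 groups, 984 and 1032, were closer together than the 2 Nef-sp -/- libraries were. The means were 1059 ± 37.3 and 939 ± 64.1 (SD, n = 2 each), so the Nef-sp -/- mean was 88.7% of that of the controls. The log2 fold change was -0.18 (SE 0.0717, 95% interval -0.33 to -0.02). Its p was 0.0329 before adjustment and 0.954 after adjustment over all exon sense genes in edgeR, so it did not pass the test. Of the 10728 genes tested, 515 or 4.8% had an unadjusted p below 0.05. The raw counts behind these values were 897 and 1541 in the controls and 774 and 832 in the homozygotes, the fewest exon reads of any member.

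Catsper4 lay in the same order with a smaller gap. It gave 2145 and 2270.3 normalized counts in heterozygotes and 2037 and 2099 in homozygotes. The groups did not overlap, although the lowest control, 2145, and the highest homozygote, 2099, were close together. The means were 2208 ± 88.4 and 2068 ± 43.8 (SD, n = 2 each) and gave a log2 fold change of -0.096 (SE 0.0613, edgeR adjusted p = 0.954). The interval ran from 85.2% to 103% of the control level.

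Catsperb, which encodes the accessory subunit CatSper beta with a large extracellular domain, lay on the other side. Its normalized counts were 3083 and 3148 in the heterozygous libraries and 3374 and 3194 in the homozygous libraries. Both Nef-sp -/- values were above both controls. The means were 3116 ± 46.1 and 3284 ± 128 (SD, n = 2 each), which gave a log2 fold change of 0.075 (SE 0.0594, edgeR adjusted p = 0.954) and an interval from 96.2% to 115% of the control level.

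Kcnu1, the potassium channel gene, gave 2333 and 2536.5 normalized counts in heterozygotes and 2422 and 2497 in homozygotes. Both homozygous libraries fell between the controls. The means were 2435 ± 144 and 2459 ± 53.0 (SD, n = 2 each), with a log2 fold change of 0.012 (SE 0.0638, edgeR adjusted p = 0.990) and an interval from 91.5% to 111% of the control level.

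**Figure D1:**
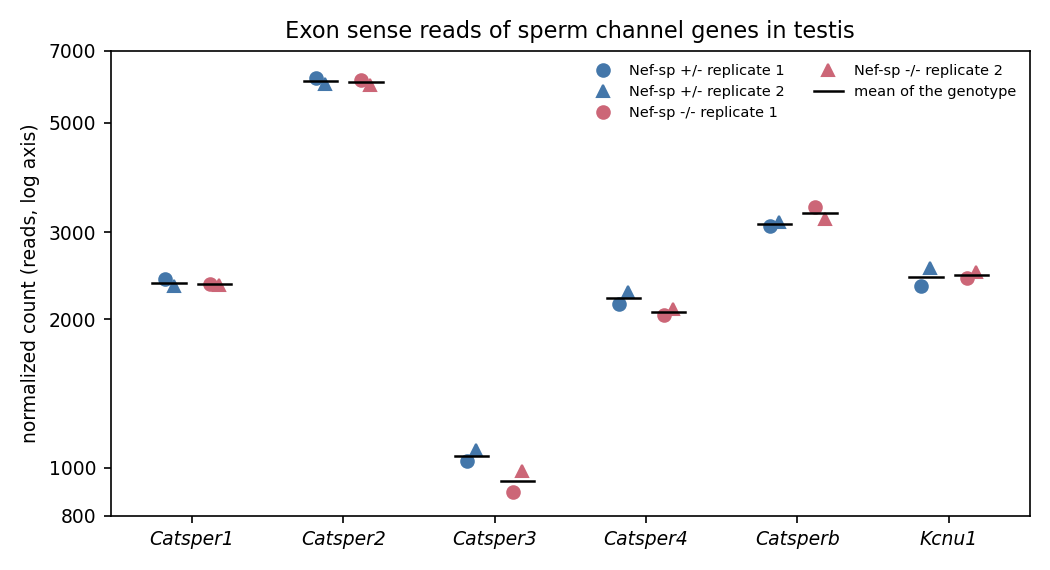
Normalized exon sense read counts (log axis) of the 6 member genes, with 1 point for each library (circles replicate 1, triangles replicate 2), Nef-sp +/- in blue and Nef-sp -/- in red, and a bar at the mean of each genotype. The Catsper3 points of the 2 genotypes are apart (894 and 984 against 1032 and 1085), while those of Catsper1, Catsper2 and Kcnu1 overlap.

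None of the 6 genes had an adjusted p below 0.05 in edgeR, 1 of them (Catsper3) had an unadjusted p below 0.05, and DESeq2 gave 0 by either measure. In 2 of the 6 both Nef-sp -/- libraries were below both controls, and in 1 both were above. Over all 10728 genes tested, 18.1% were entirely below and 16.4% entirely above. The median log2 fold change of the 6 genes was -0.0091, beside -0.0002 over all genes tested, and the median of the absolute values was 0.044, beside 0.0715. Together the 6 genes took 0.0942% and 0.0927% of raw exon sense reads in heterozygotes and 0.0911% and 0.0914% in homozygotes. These shares were not scaled by TMM, unlike the normalized counts above, so the difference between genotypes need not be the same on both scales. The means were 0.0935% ± 0.00112 and 0.0913% ± 0.000157 (SD, n = 2 each). The smallest two-sided p of an exact permutation test with 2 libraries against 2 is 0.333, so that test cannot separate these shares.

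**Figure D2:**
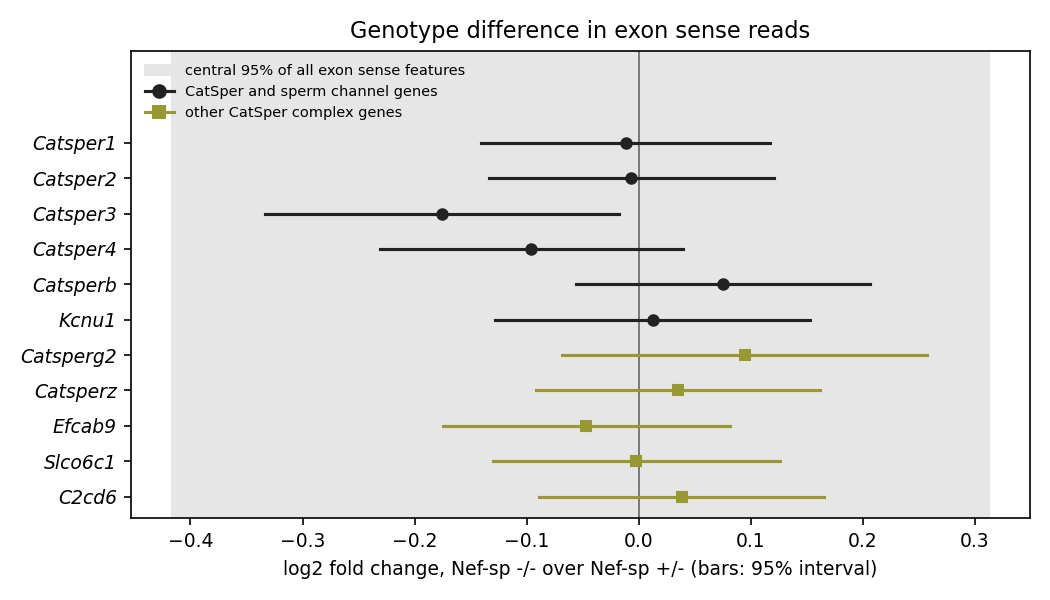
Log2 fold change of exon sense reads, Nef-sp -/- over Nef-sp +/-, for the 6 member genes (black circles) and 5 other genes of the CatSper complex (olive squares), with 95% intervals as bars. The grey band, from -0.42 to 0.31, holds the central 95% of all 10728 genes tested, and every point lies inside it, with Catsper3 at -0.18 the farthest from 0.

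The rest of the CatSper complex was read from the same fit. Of 11 further genes of the complex, 5 were found among the exon sense genes and all 5 passed the filter. None passed the test in edgeR in either direction, none had an unadjusted p below 0.05, and DESeq2 called 0 of the 71 listed genes found. Their median log2 fold change was 0.035. Catsperd, Catsperg1, Catspere1, Catspere2, Tmem249 and Tmem262 were not found under these or older symbols and were not analysed here.

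Catsperz encodes the small subunit CatSper zeta, which with EFCAB9 forms a calcium-sensing pair on the inner side of the channel. It gave 8148 and 8127 normalized counts in heterozygotes and 8457 and 8221 in homozygotes, a log2 fold change of 0.035 (SE 0.0573). Its partner Efcab9, with calcium-binding EF hands, gave 2930.2 and 2840.0 against 2816 and 2769, a log2 fold change of -0.047 (SE 0.0580). The genotypes did not overlap in either gene, but the partners lay on opposite sides, and edgeR gave adjusted p = 0.966 for Catsperz and 0.956 for Efcab9. Over all 10728 exon sense genes tested, 18.1% were entirely below the controls and 16.4% entirely above.

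Slco6c1, an organic anion transporter found with the channel, gave 5819 and 5748 normalized counts against 5893 and 5655, with a log2 fold change of -0.0022 (SE 0.0580). C2cd6, listed under its older symbol Als2cr11 and needed to bring the channel into the tail, gave 7665 and 7482 against 7866 and 7686, with a log2 fold change of 0.038 (SE 0.0575). The groups overlapped in Slco6c1, while both homozygotes were above both controls in C2cd6, as in 16.4% of all genes tested. Catsperg2, an accessory subunit listed as 1700067C01Rik, gave 2449 and 2214 against 2351 and 2619.7 and had the largest difference of the 5, a log2 fold change of 0.094 (SE 0.0736). It has a close paralog, Catsperg1, and how reads shared by the pair were counted is not given in the sources used here, so its value is uncertain.

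Compared per length, Catsper2 was the highest of the member genes. The level per length is the number of reads for each kilobase of annotated exon, divided by the effective library size in units of 1000000. The effective library size is the exon sense reads of a library, past the filter on low counts, after TMM scaling. The level was averaged over the 4 libraries. Catsper2 stood at 84.8 ± 1.23, Catsper1 at 61.5 ± 0.910 and Catsper4 at 54.6 ± 2.52 (SD, n = 4). Catsperb followed at 46.2 ± 1.80, Catsper3 at 39.4 ± 3.21 and Kcnu1 at 35.9 ± 1.32 (SD, n = 4). The ranges over libraries did not overlap for the first 4, which kept their order in every library. Those of Catsper3 (35.3 to 42.8) and Kcnu1 (34.2 to 37.2) did, and in Nef-sp -/- replicate 1 Kcnu1 was above Catsper3.

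The level per length differed among the 4 pore subunits. Relative to Catsper1 in the same library, the level per length of Catsper2 was 1.37 to 1.39 and that of Catsper4 0.872 and 0.955 in heterozygotes and 0.847 and 0.878 in homozygotes, which overlap. Catsper3 was at 0.648 and 0.704 of Catsper1 in the heterozygous libraries and at 0.574 and 0.636 in the homozygous libraries, without overlap. Catsperb was at 0.709 and 0.749 against 0.793 and 0.755, also without overlap, and Kcnu1 at 0.545 and 0.612 against 0.578 and 0.600, which overlap. How many of all genes have a ratio to Catsper1 without overlap was not computed. In exon counts, 18.1% of the 10728 genes tested were entirely below the controls and 16.4% entirely above. The order depends on which transcript is counted. With the longest annotated transcript in place of all exons, Catsper2 stood at 141.9 and Catsper4 at 66.5, above Catsper1. The annotated transcript of Catsper1, 2061 bases long, ends with its coding sequence, so reads from an untranslated end of the gene would lie outside that length.

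**Figure D3:**
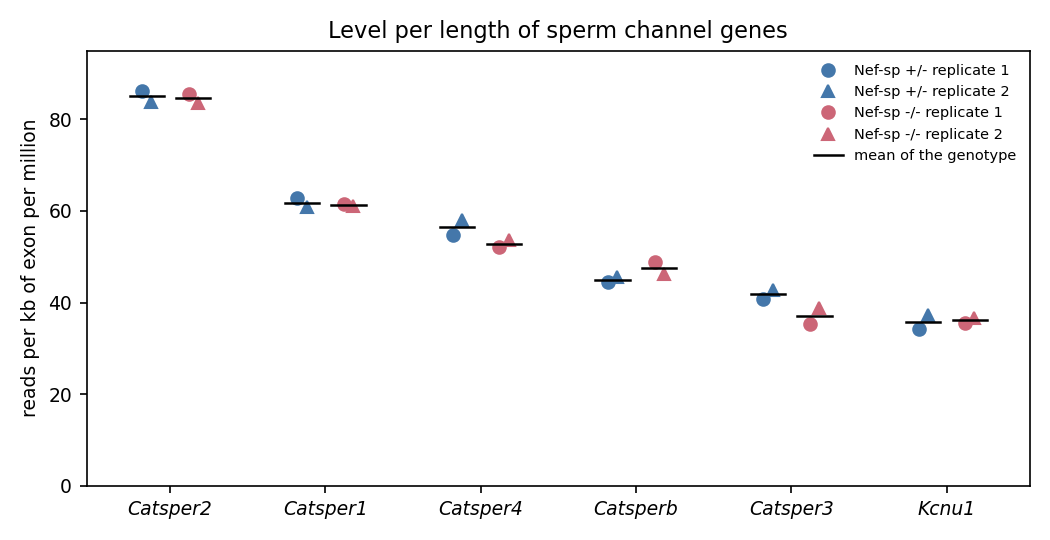
Level per length of the 6 member genes in each library, ordered by their mean. It is in reads per kilobase of exon, per 1000000 exon sense reads after TMM scaling, on an axis from 0. Nef-sp +/- is in blue and Nef-sp -/- in red, with a bar at the mean of each genotype. Catsper2 (83.7 to 86.1) is above Catsper1 (60.8 to 62.8) in every library, and the ranges of Catsper3 and Kcnu1 overlap.

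Against the rest of the complex, the pore genes were moderate. Catsperz stood at 566.3 ± 10.4 on this scale, Efcab9 at 146.1 ± 3.49 and Slco6c1 at 111.0 ± 1.96 (SD, n = 4), all above every member. With the longest transcript Catsper2, at 141.9, was above Slco6c1, at 111.0. Catsperg2 was the lowest at 27.8 ± 1.97 (SD, n = 4). C2cd6 has more than 1 entry in the annotation and was left out of this scale.

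Intron reads give a separate view of the same genes, since they come mostly from RNA that has not been spliced. They were scarce. Per base, the introns of Catsper1 held 0.533% of the read density of its exons over the 4 libraries pooled, those of Catsper2 0.253%, of Catsper4 0.252%, of Catsperb 0.0665%, of Kcnu1 0.011% and of Catsper3 0.00729%. Catsper3 had 0 and 1 intron reads in the heterozygous libraries and 0 and 4 in the homozygous libraries, and Kcnu1 4 and 9 against 6 and 6. Neither passed the filter on low counts, so a difference in unspliced RNA of Catsper3 was not detectable at this depth.

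The other 4 members with intron reads were tested. None had an adjusted or unadjusted p below 0.05 in edgeR or DESeq2. Of the 3403 genes tested in this category 1 passed in edgeR, Nef-sp, a share of 0.0294%. DESeq2, without the filter, called 0 of 6616. Catsper2 had 76.2 and 55.2 normalized intron counts in heterozygotes and 78.6 and 88.0 in homozygotes. Both homozygotes were above both controls, by a narrow margin over Nef-sp +/- replicate 1. The log2 fold change was 0.37 (SE 0.212, 95% interval -0.07 to 0.81, edgeR adjusted p = 0.9996). Without Nef-sp +/- replicate 2 it was 0.12, and without Nef-sp +/- replicate 1 it was 0.59. Catsper1 had 38.1 and 36.1 against 39.3 and 42.9, a log2 fold change of 0.16 (SE 0.245). In all, 2 of the 4 genes were entirely above the controls, and 13.5% of all genes tested in introns were.

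Catsperb, with the longest introns, had 125.5 and 139.1 normalized intron counts in heterozygotes and 127.4 and 97.9 in homozygotes. The groups overlapped, and the low value came from Nef-sp -/- replicate 2 alone. Its log2 fold change was -0.24 (SE 0.182), without that library it was -0.06, and without Nef-sp -/- replicate 1 it was -0.45. Catsper4 had 37.0 and 33.9 against 35.7 and 31.9, a log2 fold change of -0.06 (SE 0.257). For both, the edgeR adjusted p was 0.9996.

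Hvcn1 was seen only through reads from the strand opposite to the gene. Its exons had 340.0 and 312.0 normalized antisense counts in heterozygotes and 314.6 and 335.4 in homozygotes. The genotypes overlapped, and the log2 fold change was 0.0017 (SE 0.116, 95% interval -0.23 to 0.24, edgeR adjusted p = 0.998). The introns had 214.5 and 246.1 against 223.4 and 230.2, a log2 fold change of -0.035 (SE 0.121, 95% interval -0.29 to 0.22, edgeR adjusted p = 0.990).

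In the whole exon antisense category edgeR called 0 of 1008 genes (0.0%), with 30 at an unadjusted p below 0.05. DESeq2, without the filter, called 0 of 2346. In the intron antisense category edgeR called 0 of 1421 (0.0%), with 64 at an unadjusted p below 0.05. There DESeq2 called 0 of 2754, again without the filter. The end of Hvcn1 overlaps Tctn1, a gene of the primary cilium on the minus strand, over 1011 bases at chr5:122691296-122692306. Exons of Tctn1 cover 549 of the 3563 exon bases of Hvcn1 and 0 bases of its introns. No sense row of Tctn1 was among the rows used, and the part of Tctn1 in these antisense reads was not tested. Kcnu1 had 2 and 1 antisense intron reads in the controls and 0 and 2 in the homozygotes, too few to test.

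**Figure D4:**
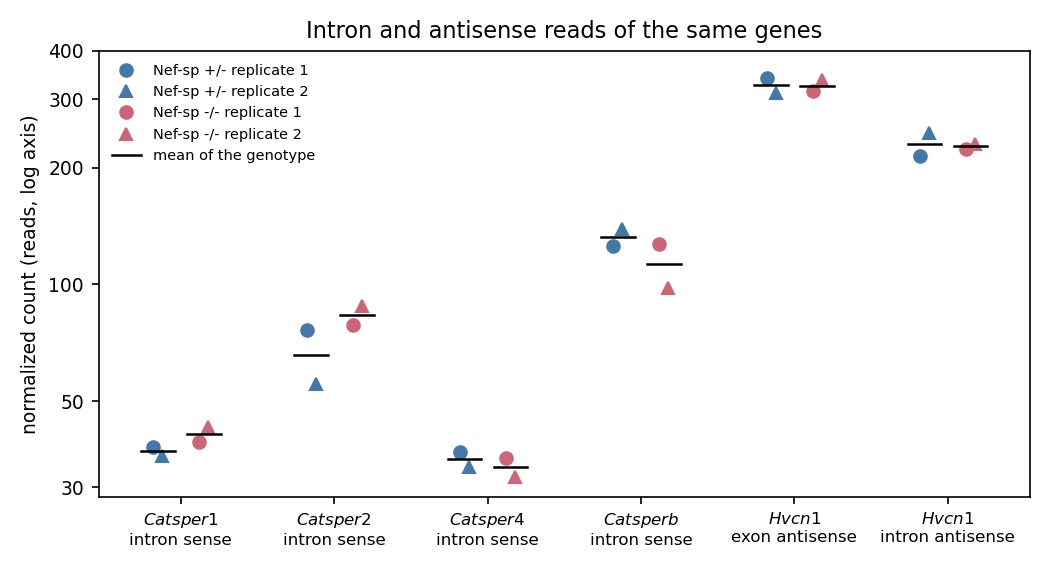
Normalized counts (log axis) of intron sense reads of Catsper1, Catsper2, Catsper4 and Catsperb, and of exon and intron antisense reads of Hvcn1, with 1 point for each library (circles replicate 1, triangles replicate 2), Nef-sp +/- in blue, Nef-sp -/- in red and a bar at the mean of each genotype. The 2 genotypes overlap except in Catsper1 and Catsper2 introns, where the Nef-sp -/- points (39.3 and 42.9, 78.6 and 88.0) are the higher ones.

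Catsper2 also has a neighbor on the other strand. Its first 807 bases, at chr2:121239511-121240317, overlap Pdia3, which encodes a protein disulfide isomerase, and exons of Pdia3 cover 18 exon bases and 413 intron bases of Catsper2. The annotated genes Gm14000 and Gm14001 also overlap Catsper2, and AC123824.1 overlaps Catsperb. Pdia3, named here after its values were seen, gave 5677 and 5500.4 normalized exon counts in heterozygotes and 5398 and 5475 in homozygotes. Its log2 fold change was -0.040 (SE 0.0574, edgeR adjusted p = 0.957).

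Other channels and transporters of sperm gave no called gene. Of 16 on the list, 12 were found and 11 tested, and 0 passed the test in edgeR, had an unadjusted p below 0.05 or were called by DESeq2. Their log2 fold changes ran from -0.17 to 0.17 with a median of 0.016. The most abundant were Slc22a14, Slc9c1 and Cacna1h. Slc9c1, listed as Slc9a10, encodes the sperm sodium/proton exchanger that makes the tail alkaline, and gave 5551 and 5480.0 normalized counts against 5671 and 5428, a log2 fold change of 0.0090 (SE 0.0582). The groups overlapped, as they did in Slc22a14, a transporter of the sperm tail, with 5825 and 5798 against 5341 and 6044 and a log2 fold change of -0.030 (SE 0.0682). Cacna1h, a T-type calcium channel gene, gave 4883 and 5105 against 5117 and 3735. Its log2 fold change of -0.17 (SE 0.113) came from Nef-sp -/- replicate 2, without which it was 0.04. Lrrc52, the auxiliary subunit of the potassium channel made by Kcnu1, was named after its values were seen. It gave 564 and 597 against 519.7 and 555, with a log2 fold change of -0.12 (SE 0.0767, edgeR adjusted p = 0.954). Both homozygotes were below both controls, as in 18.1% of all exon sense genes tested.

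Genes of motility and calcium signaling, which act with these channels in the tail, were found for all 17 on the list. None passed the test in edgeR, 1 had an unadjusted p below 0.05, and DESeq2 called none. Their median log2 fold change was 0.018. The gene with the low p was Akap4, the main scaffold of the fibrous sheath that surrounds the tail. It gave 62670 and 78571 normalized counts in heterozygotes and 81757 and 81017 in homozygotes. Nef-sp +/- replicate 1 was far below the other 3 libraries, as it was in the summed spermatid markers and not in Acrv1 or Spaca1. The log2 fold change was 0.20 (SE 0.0923, edgeR unadjusted p = 0.0493, edgeR adjusted p = 0.954). Without Nef-sp +/- replicate 1 it was 0.05, and without Nef-sp +/- replicate 2 it was 0.38 with an adjusted p of 7.8e-09. Akap3, a second sheath scaffold, gave 32393 and 36914 against 34906 and 33125, and Ppp1cc, a phosphatase that restrains motility, 21216 and 21252 against 21119 and 20787, with log2 fold changes of -0.027 (SE 0.0730) and -0.019 (SE 0.0578).

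Nef-sp +/- replicate 1, low in Akap4, was the lowest library for Catsperb and Kcnu1 exons, the highest for Catsper1 and Catsper2, and between the others for Catsper3 and Catsper4. Over all 4 libraries the highest exon count was at most 1.21 times the lowest, in Catsper3, and 1.03 times in Catsper1 and Catsper2. Leaving out each library in turn gave log2 fold changes from -0.24 to -0.11 for Catsper3, from -0.13 to -0.05 for Catsper4 and from 0.04 to 0.12 for Catsperb. The same ranges were -0.04 to 0.01 for Catsper1, -0.03 to 0.01 for Catsper2 and -0.04 to 0.08 for Kcnu1, which was at -0.04 without Nef-sp +/- replicate 1. For Catsper3 the smallest difference, -0.11, was the one without Nef-sp -/- replicate 1. The number of all genes called depended on the controls far more, with 41 called without Nef-sp +/- replicate 1 and 252 without Nef-sp +/- replicate 2, but no member was among them.

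Markers of cells other than germ cells were also read, and none passed the test in edgeR or DESeq2 with all libraries. The 5 Leydig cell markers summed to 17486 and 17369 normalized counts in heterozygotes and 16545 and 13932 in homozygotes. The list did not move together, since 3 of the 5 had a positive log2 fold change (Star 0.08, Hsd3b1 0.15 and Insl3 0.18) and the median was 0.08. The other 2, Cyp11a1 (-0.35) and Cyp17a1, carried the lower sum and had an unadjusted p below 0.05. The most abundant, Cyp17a1, an enzyme of androgen synthesis, gave 10616 and 10209 against 9284 and 7950.2, with a log2 fold change of -0.27 (SE 0.0754, edgeR adjusted p = 0.954). It passed the test without Nef-sp +/- replicate 1 (-0.24, edgeR adjusted p = 0.0216) and without Nef-sp +/- replicate 2 (-0.30, edgeR adjusted p = 0.00134). The 4 Sertoli cell markers found of 6 summed to 2189 and 2327 against 2208 and 2332, and the 4 peritubular myoid markers to 1415 and 1379 against 1229 and 1351. Of 7 macrophage and leukocyte markers 6 were found and 2 passed the filter on low counts, and these 2 summed to 82.9 and 90.8 against 87.8 and 81.6. The part of these shifts in the member genes was not tested.

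The most abundant marker of each other list was as follows. Piwil1, a piRNA-binding protein of spermatocytes and round spermatids, gave 6934 and 6544 normalized counts against 5767 and 6457, a log2 fold change of -0.14 (SE 0.0689). Prm2, a protamine that packs sperm DNA, gave 96587 and 130663 against 123192 and 123966, a log2 fold change of 0.12. Without Nef-sp +/- replicate 1 it was -0.08, and without Nef-sp +/- replicate 2 it was 0.36 (edgeR adjusted p = 7.8e-09). Kit of spermatogonia stood at 214 and 207 against 180.2 and 241, Cldn11 of Sertoli cells at 1546 and 1595 against 1568 and 1675, Acta2 of myoid cells at 883 and 818 against 725 and 788, and Csf1r of macrophages at 69.1 and 75.3 against 69.3 and 68.6.

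The genes with the pattern over libraries most like the pore subunits were Mta2, Ndufb4 and Ddhd1. Likeness was the Euclidean distance over the 4 libraries between a gene's centered log2 normalized counts and the mean of those of Catsper1, Catsper2, Catsper3 and Catsper4, among 8193 genes with a mean normalized count of at least 100. Mta2 lay at 0.0076, Ndufb4 at 0.0085 and Ddhd1 at 0.0111. The members lay farther out, but these 3 genes were picked as the nearest of all 8193. Catsper4 lay at 0.0512 from the mean pattern that it helped to set and Catsper3 at 0.1319, with 3.59% and 40.2% of the 8193 genes nearer. For Catsper1 and Catsper2, which also helped to set it, 13.0% and 16.7% were nearer. Kcnu1 lay at 0.1142 and Catsperb at 0.1682, with 29.6% and 58.9% nearer. With 4 libraries that all differ little, this likeness is a description only.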

How the data were processed

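Strand-specific reads of testicular RNA had been stripped of adapters, mapped by the authors to mm9 with in-house tools, and kept only where they matched perfectly. The authors deposited raw counts of reads for 25745 features in 10 annotation categories, with a total of at least 5 reads each. Tool versions, the gene annotation and how reads matching more than 1 place were counted are not given in the sources used here. Beside the counts the authors deposited a mean normalized signal over all libraries, their log2 fold change, and p-values with adjusted p-values from DESeq2, none of which were used. Every column of counts was matched to 1 library through the labels, and 0 were left over.

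From the counts, each of the 4 gene exon and intron categories was filtered with edgeR 4.0.16 (minimum count 10, R 4.3.3), scaled by TMM and fitted without covariates for the quasi-likelihood test, and p-values were adjusted by the Benjamini-Hochberg method over all features of the category. The threshold was an adjusted p of 0.05. Each standard error is the absolute log2 fold change over the root of its F statistic. To normalize, counts were scaled to the mean of the 4 effective library sizes. Gene lengths, positions and sequences came from GENCODE vM1 on mm9, and 71 of 84 listed genes were found, 6 under an older symbol. Promoter sequences were not used.

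The members and gene lists were chosen with earlier results of these data known. Named are all members, Nef-sp, the found genes of the CatSper complex, the 3 most abundant genes of each of the other 2 functional lists and any there with an unadjusted p below 0.05, the most abundant marker of each cell type and any with an adjusted p below 0.05, and the 3 genes most like the pore subunits. Lrrc52 and Pdia3 were added after their values were seen. The other spermatid and Leydig cell markers fall outside this rule and were named with their values known. Alternatives were the size factors of DESeq2 1.42.0 in edgeR, library sizes over all categories, no filter, a filter of 10 counts in every library, DESeq2 itself, a single fit over all categories, a replicate block, each library left out in turn and, for levels, the length of the longest transcript. DESeq2 itself was run on all listed genes of a category, without the filter on low counts. The labels give both genotypes replicates 1 and 2.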

Additional observations from a re-analysis of the deposited data

How the results depend on the processing

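No member passed the threshold under any of the alternatives run, in any category. Catsper3, Catsper4 and Catsperb exons and Catsper1, Catsper2 and Catsperb introns kept their direction throughout. Differences near 0 changed sign, and with 1 library left out so did the larger ones of Cacna1h (-0.1745) and Prm2 (0.121). With library sizes over all categories the log2 fold change was -0.011 for Kcnu1, -0.0152 for Slc9c1, -0.0191 for Kit and -0.036 for Hvcn1 exon antisense reads. The last was also -0.0066 with DESeq2 size factors, -0.015 without a filter, -0.0223 with 10 counts in every library, -0.0102 with DESeq2 and -0.0222 in a single fit over all categories, where Kit was -0.0072. Slco6c1 was 0.001 with DESeq2 size factors and 0.0015 with DESeq2. With each library left out, log2 fold changes lay from -0.036 to 0.0126 for Catsper1, -0.0254 to 0.0134 for Catsper2 and -0.044 to 0.0763 for Kcnu1, from -0.1517 to 0.0216 for Catsper4 introns, and from -0.0689 to 0.0462 and -0.1156 to 0.0777 for Hvcn1 exon and intron antisense reads. Among the other genes they ran from -0.0324 to 0.031 for Slco6c1, -0.0231 to 0.0441 for Slc9c1, -0.4194 to 0.0383 for Cacna1h, -0.1179 to 0.0567 for Slc22a14, -0.1172 to 0.0709 for Akap3, -0.2178 to 0.2006 for Kit and -0.0797 to 0.3559 for Prm2. Exon sense genes called numbered 1, 2 with DESeq2, and 1 to 252 with each library left out (41 without Nef-sp +/- replicate 1 and 252 without Nef-sp +/- replicate 2). Listed genes called numbered 0, and 0 to 9 with each library left out, 2 and 9 without the same controls. Such a fit assumes that the lone library of a genotype varies like the other genotype. The level per length with the longest transcript was 141.9 for Catsper2, 66.5 for Catsper4 and 37.2 for Kcnu1. Nothing in the labels says that same-numbered libraries are paired, and their deviations correlated at -0.082 over exon sense genes. With the replicate block 1 exon sense gene and no member was called, and Catsper3 was at -0.1731. Crossed numbers, tried after seeing the data in the intron categories (correlations -0.139 and -0.11), called no member. With 2 libraries a genotype, the exon intervals differed between members. They ran from 79.3% to 98.8% of the control level for Catsper3, 90.7% to 108% for Catsper1 and 96.2% to 115% for Catsperb. These intervals are not adjusted for the number of genes, and differences within the interval of a gene were not resolved. Where a value changed, the cause was not tested.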
